A study of Homo sapiens with 20 samples.

Results

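Mutant forms of NME1 were compared with each other in the melanoma cell line WM793. The comparison took the 4 arrays of the line NME1-K12Q and the 4 arrays of the line NME1-P96S, 8 of the 20 arrays of the study, across all 18708 rows of the expression table. WM793 is an established human line from a vertical growth phase melanoma. NME1-K12Q and NME1-P96S are WM793 lines described in the design text as overexpressing NME1 with the named amino acid substitution, and the other lines of the study were the parent line, called Parent, NME1-wild-type and NME1-E5A, with 4 arrays each. All were grown for 3 days without any labelled treatment, and total RNA was hybridised to Affymetrix human exon arrays (Exon 1.0 ST). Each construct is represented by 1 line, the promoter of the construct is not named in the labels, and the 4 arrays of a line are called technical replicates in the design text. The p-values below therefore measure only the spread between arrays and give no measure of variation between independent lines of one construct. Bulk RNA was measured, so fewer cells expressing a gene and less RNA per cell cannot be told apart.

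NME1 encodes a nucleoside diphosphate kinase, an enzyme that moves phosphate between nucleotides through a phosphorylated histidine in its active site, and the gene is known as a metastasis suppressor in melanoma and other tumours. The lysine replaced in K12Q lies in the nucleotide-binding active site, and that mutant has been described as lacking kinase activity. The substitution P96S is the human counterpart of the Drosophila Killer of prune mutation. Values below are log2 expression values, a difference is NME1-P96S minus NME1-K12Q, and a row was called changed when its adjusted p (limma, Benjamini-Hochberg over all rows) was under 0.05 and its fold was at least 1.5.

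The row that measures NME1, row 3726934, did not differ between the lines by more than the spread between arrays. It is annotated to NME1 and to the NME1-NME2 readthrough transcript. It read 9.45, 9.93, 9.89 and 9.74 on NME1-K12Q replicates 1 to 4 and 9.63, 9.87, 9.86 and 9.76 on NME1-P96S replicates 1 to 4. The ranges overlapped, with means of 9.75 ± 0.216 (SD, n = 4) and 9.78 ± 0.11 (SD, n = 4), a difference of 0.03 (SE 0.12, exact two-sided permutation p = 0.914, smallest possible 0.0286). The sign of this difference turned when NME1-K12Q replicate 1 (-0.07), NME1-P96S replicate 2 (-0.0039) or NME1-P96S replicate 3 (-0.000597) was left out. Parent was at 9.53 ± 0.173 (SD, n = 4) on this row, so that NME1-K12Q was 0.23 above it, 1.17-fold (exact two-sided permutation p = 0.143), and NME1-P96S 0.25 above it, 1.19-fold (exact two-sided permutation p = 0.0571). Neither difference from Parent passed 0.05, and the smallest p this design allows is 0.0286. The row cannot tell the construct from the endogenous gene. Row 3726960, annotated to NME2 and the readthrough transcript, read 10.48 ± 0.198 (SD, n = 4) and 10.50 ± 0.133 (SD, n = 4), with an exact two-sided permutation p of 0.886. None of the other 6 NME family genes with a row of their own passed, and their differences lay between -0.32 and 0.01.

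Between the lines 53 of 18708 rows changed (0.283%). Of these, 19 rows (0.102%) were higher in NME1-P96S and 34 rows (0.182%) were lower. The 53 rows comprise 44 with a single gene symbol, which name 43 genes, 8 with several symbols and 1 that the annotation does not list. A fold of 2 or more was reached by 14 of them, 5 higher and 9 lower. Another 68 rows were past the fold and did not pass the test, among them row 2357193, which carries no single gene symbol and had the highest difference of the table (1.65, adjusted p = 0.495 by limma). On all 53 changed rows the 4 arrays of one line lay above the 4 of the other, against 416 of all rows (2.22%). The median difference over all rows was -0.02, with quartiles of -0.11 and 0.07. Without adjustment 583 rows (3.12%) had a limma p under 0.05.

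**Figure D1:**
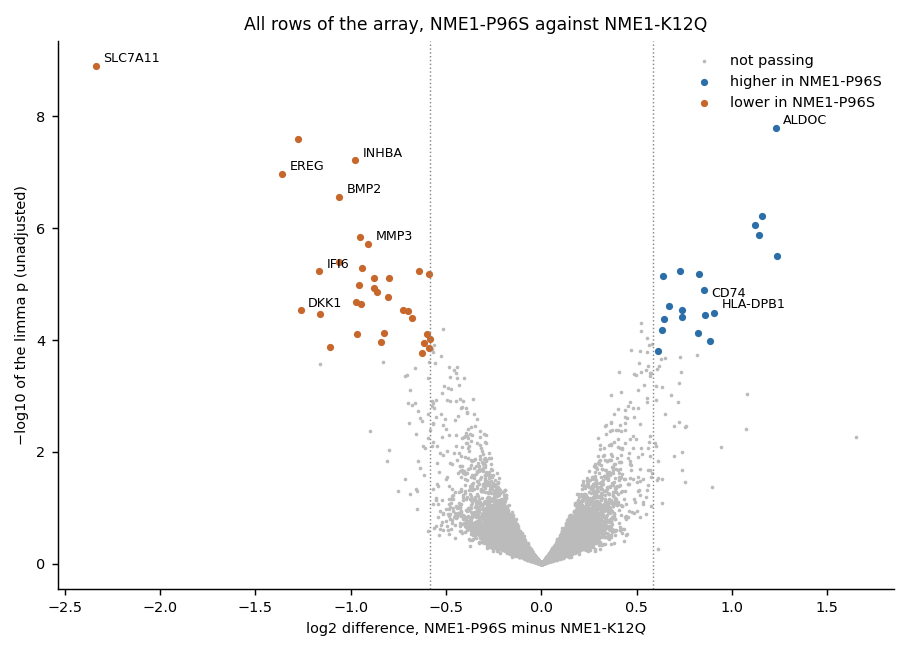
Each point is 1 of 18708 rows; the horizontal axis is the log2 difference, NME1-P96S minus NME1-K12Q, the vertical axis is -log10 of the unadjusted limma p, and dotted lines mark a fold of 1.5. The 19 rows higher in NME1-P96S are blue and the 34 lower rows are orange, with SLC7A11 apart at -2.34.

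The arrays were of similar level but unequal spread. Medians of the 20 arrays lay between 6.27 and 6.50, and the interquartile range lay between 2.46 and 2.98 on the NME1-K12Q arrays and between 2.33 and 3.16 on the NME1-P96S arrays. The narrowest array of each line, NME1-P96S replicate 3 and NME1-K12Q replicate 2, belonged to the 3 narrowest of the study. Correlations among the NME1-P96S arrays (0.931 to 0.992, median 0.976) were no higher than those between the lines (0.950 to 0.993, median 0.981). Among the NME1-K12Q arrays the median was 0.987. Without NME1-P96S replicate 3 the count was 79 rows, and without NME1-K12Q replicates 1, 3 or 4 or NME1-P96S replicate 4 it was 33, 29, 28 and 34. In all 8 fits that left out 1 array, 22 of the 53 rows passed. A fit on the 8 arrays alone, with no spread shared with the other lines, called 2 rows, SLC7A11 and ALDOC. Of 21 measured melanocyte lineage markers SOX10 was the most abundant (9.35 in NME1-K12Q and 9.53 in NME1-P96S), and none of the list changed. The list had a median difference of -0.03, with 9 members positive and 12 negative, beside 44.1% of all rows positive. On 2 members all NME1-P96S arrays lay below, against 1.21% of all rows. Its mean level was 6.32 to 6.41 on the NME1-K12Q arrays and 6.27 to 6.34 on the NME1-P96S arrays, beside a median row level of 6.35.

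SLC7A11, the light chain of the cystine/glutamate antiporter that brings in cystine for glutathione synthesis, had the largest difference of any row. It read 9.66, 9.19, 9.45 and 9.45 on the NME1-K12Q arrays and 7.45, 7.44, 6.64 and 6.86 on the NME1-P96S arrays. Every NME1-P96S array lay well below every NME1-K12Q array. The level fell from 9.43 ± 0.19 (SD, n = 4) to 7.10 ± 0.412 (SD, n = 4), a difference of -2.34 (SE 0.219, limma adjusted p = 2.31e-05) and 5.05-fold lower. It was also the single row that passed a test against the fold of 1.5 itself (limma treat). Parent, NME1-wild-type and NME1-E5A lay between these lines at 8.40, 8.87 and 8.35, so that NME1-K12Q was above all of them and NME1-P96S below.

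SLC7A11 belongs to a list of 21 measured genes that serve cystine uptake or are known targets of NRF2, the transcription factor of the oxidative stress response. In this list 2 members fell, SLC7A11 and AKR1C3, beside 0.182% of all rows, and none rose. AKR1C3, an aldo-keto reductase, read 6.64, 6.41, 6.21 and 6.41 on the NME1-K12Q arrays and 5.72, 5.54, 5.31 and 5.79 on the NME1-P96S arrays, without overlap. Its difference was -0.82 (SE 0.166, limma adjusted p = 0.0303), and the call was lost on leaving out any one of the 8 arrays except NME1-P96S replicate 4 (-0.73 to -0.89). Its probes may be shared with near-identical AKR1C copies, whose rows carry several symbols.

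The other 19 members did not pass. Those with the largest differences were the transporter ABCC2 (-0.64, adjusted p = 0.301 by limma), the thioredoxin reductase TXNRD1 (-0.47, adjusted p = 0.13), the glutathione synthesis subunit GCLM (-0.45), the sulfiredoxin SRXN1 (-0.40), ABCC3 (-0.38) and haem oxygenase HMOX1 (-0.33). On TXNRD1 and ABCC2 the arrays of the lines did not overlap. Next came OSGIN1 (-0.27), the malic enzyme ME1 (-0.25), the transketolase TKT (-0.18), PIR (-0.17) and SLC3A2 (-0.15), which is the heavy chain that partners SLC7A11. GSR and KEAP1, the latter the inhibitor of NRF2, were both at -0.12, FTL was at -0.10, and GCLC and ABCC1 were at -0.05. UGDH and PGD stood at 0.08 and GPX2 at 0.10. The median over the list was -0.18, beside a median of -0.02 over all rows. Of 21 members 18 were negative and 3 positive, beside 44.1% of all rows positive. None of 8 rows with a listed gene among several symbols passed (-0.43 to 0.15). The list was chosen with earlier results on these arrays known and is no independent evidence of a direction.

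**Figure D2:**
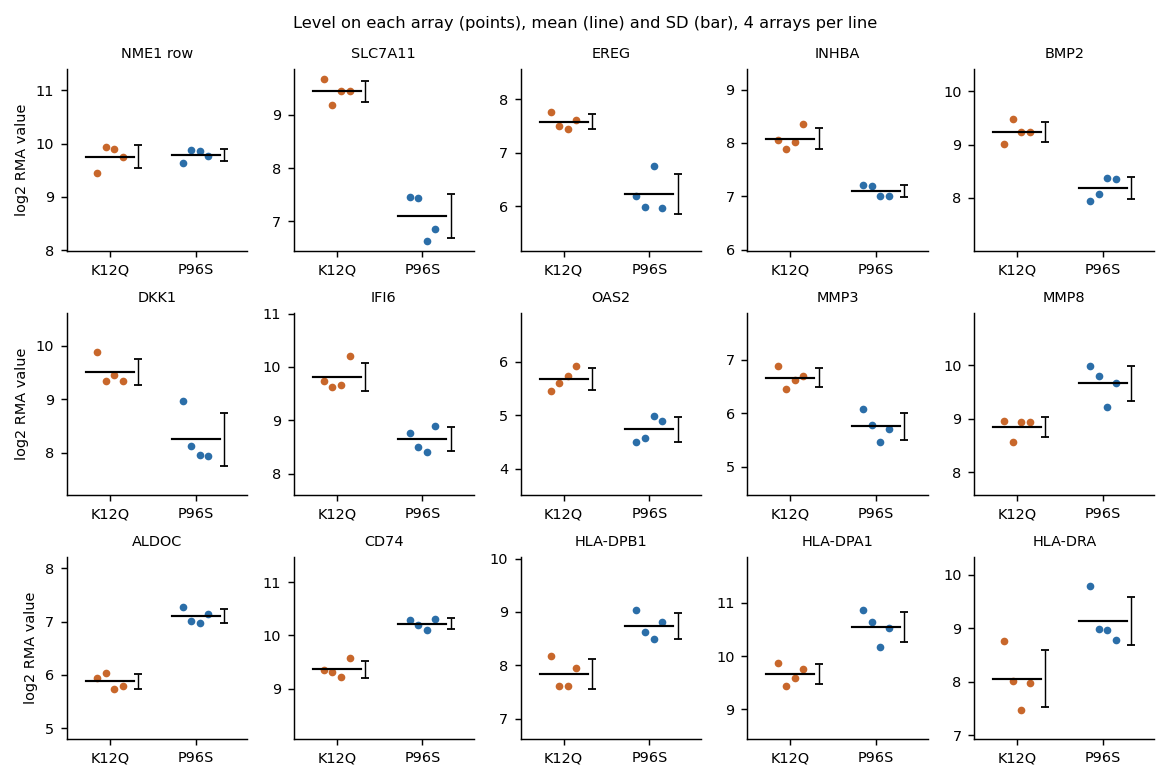
Log2 RMA values on the 4 NME1-K12Q arrays (orange) and the 4 NME1-P96S arrays (blue) for the NME1 row and 14 genes; lines are means and bars are SD, and every vertical axis spans the same number of log2 units. The lines overlap on the NME1 row alone, and HLA-DRA, which did not pass the test, is shown beside the 13 genes that did.

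Genes of MHC class II antigen presentation rose in NME1-P96S on 3 of 11 measured rows, by 0.86 to 0.91, beside 0.102% of all rows. Class II molecules are pairs of an alpha and a beta chain that display peptides to helper T cells; CD74, the invariant chain, guides them to the compartment where HLA-DM loads the peptide, and CIITA is the coactivator that turns on the whole set. Melanoma cells, unlike most tissue cells, often express them. None of the 11 members with a row of their own fell, and the 4 arrays of NME1-P96S lay above those of NME1-K12Q on 6, against 1.01% of all rows. The list was chosen with earlier results of NME1-P96S known.

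Upstream sequences of HLA-DPB1 and CD74, which rose, are shown from the RefSeq promoter table because promoters of this set carry a Y box, whose core ATTGG, read on either strand, is in capitals. Each is the 250 bases before the annotated start on GRCh38.p14, 5′ to 3′ on the gene's strand, for HLA-DPB1 chr6:33075740-33075989 (plus strand) and for CD74 chr5:150412911-150413160 (minus strand).
HLA-DPB1: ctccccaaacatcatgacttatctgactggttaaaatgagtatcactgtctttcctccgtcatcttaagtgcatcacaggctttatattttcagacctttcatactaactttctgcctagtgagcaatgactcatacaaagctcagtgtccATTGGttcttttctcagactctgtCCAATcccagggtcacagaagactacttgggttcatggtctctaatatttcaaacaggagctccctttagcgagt
CD74: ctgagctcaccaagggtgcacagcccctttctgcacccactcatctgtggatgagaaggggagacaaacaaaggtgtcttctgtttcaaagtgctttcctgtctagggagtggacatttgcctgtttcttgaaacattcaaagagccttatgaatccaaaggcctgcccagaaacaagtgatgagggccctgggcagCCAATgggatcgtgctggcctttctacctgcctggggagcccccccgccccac
Searched on both strands, the letters were found 2 times for HLA-DPB1 and once for CD74. HLA-DPA1, the third gene of the list that rose, is in the table and held no match. The letters were found for 12 of the 15 class II list genes in the table, for 7 of the 13 higher and 8 of the 22 lower genes, and for 37.0% of its 27305 genes. A match describes letters in a window and shows no binding.

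CD74 read 9.35, 9.31, 9.22 and 9.58 on the NME1-K12Q arrays and 10.29, 10.19, 10.10 and 10.31 on the NME1-P96S arrays. All NME1-P96S arrays were above, and the level rose from 9.37 ± 0.156 to 10.22 ± 0.0981 (SD, n = 4 each), a difference of 0.86 (SE 0.148, limma adjusted p = 0.00961) or 1.81-fold. Without NME1-K12Q replicate 3 the adjusted p was 0.0525 (0.81). The beta chain HLA-DPB1 read 8.18, 7.61, 7.61 and 7.95 against 9.04, 8.62, 8.49 and 8.82. Its arrays did not overlap either, and it rose by 0.91 (SE 0.17, limma adjusted p = 0.0176), a call lost without NME1-K12Q replicate 2 or 3 or NME1-P96S replicate 1 or 4 (0.81 to 0.88). The partner chain HLA-DPA1 read 9.87, 9.44, 9.58 and 9.76 against 10.86, 10.63, 10.17 and 10.52. It rose by 0.88 (SE 0.182, limma adjusted p = 0.0384), and its call was lost on leaving out any one array except NME1-P96S replicate 3 (0.78 to 0.95).

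Row 2950277, shared by the genes HLA-DMA and HLA-DMB, which encode the chains of the peptide loader, read 6.72, 6.72, 6.32 and 6.69 on the NME1-K12Q arrays and 7.95, 7.80, 7.42 and 7.90 on the NME1-P96S arrays. It rose by 1.16 (SE 0.16, limma adjusted p = 0.00164), 2.23-fold, and passed in all 8 fits without 1 array. The row of HLA-DMB alone was at 7.39 ± 0.186 and 8.0 ± 0.154 (SD, n = 4 each), a difference of 0.62 that did not pass (limma adjusted p = 0.0715). HLA-DRA had a larger difference, 1.07, with more spread between arrays (8.77, 8.01, 7.47 and 7.98 against 9.79, 8.99, 8.97 and 8.78) and did not pass (limma adjusted p = 0.407). Its arrays did not overlap.

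CIITA read 6.30, 6.57, 6.49 and 6.46 against 6.82, 6.96, 6.98 and 7.09, without overlap, and its difference of 0.51 did not pass (limma adjusted p = 0.136). RFX5 and RFXAP, subunits of the factor that binds class II promoters, were at 0.22 and 0.07. The lysosomal protease CTSS was at 0.16, the lysosomal thiol reductase IFI30 at -0.13 and HLA-DOA, a chain of the HLA-DM inhibitor, at -0.09. Rows 4048241 and 4048265, which carry several HLA-DRB symbols, were at 0.54 (limma adjusted p = 0.12) and 0.41. Of the 6 rows that carry a gene of the list among several symbols, row 2950277 alone changed; the others were row 2950145 (HLA-DOB and TAP2) at -0.18 and rows 3825586 and 3855596, which include RFXANK, at 0.06 and 0.03. HLA-DQA2 and HLA-DQB2, class II genes of the same chromosome region outside the list, were at -0.28 and -0.23 and did not pass. These rows and both genes were chosen after their values were seen. The median over the 11 members was 0.51, beside -0.02 over all rows. HLA genes have near-identical copies that may share probes. On all 3 genes that rose, and on row 2950277, NME1-P96S was above the means of each of the other 4 lines.

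Class I presentation, which displays peptides on all nucleated cells, gave 0 of 13 changed members by limma at either threshold. The list had 0 members at an unadjusted p under 0.05, beside 3.12% of all rows, and a median of -0.06. B2M was at -0.11 and PDIA3 at 0.15. Markers of leukocytes, the cells in which class II genes are most abundant, gave 0 of 19 changed members and 1 at an unadjusted p under 0.05, which was FCRLA (0.73, limma adjusted p = 0.0828). The mean level of that list was between 4.88 and 5.35 on the NME1-K12Q arrays and between 4.72 and 5.54 on the NME1-P96S arrays. The part of other cell types in the class II values was not tested.

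Of 33 measured interferon-stimulated genes of antiviral defence 5 fell in NME1-P96S, beside 0.182% of all rows, and none rose. Interferons induce them through the ISGF3 complex, which binds the interferon-stimulated response element in their promoters. On 7 of them all NME1-P96S arrays lay below those of NME1-K12Q, against 1.21% of all rows. The 5 that fell were IFI6, OAS1, OAS2, IFI44L and MX1.

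The upstream sequences of IFI6 and IFI44L are shown because they hold the core of that element more than once (capitals), searched as GAAA, any 2 bases and GAAA. Each is again the 250 bases before the RefSeq start on GRCh38.p14, for IFI6 chr1:27672193-27672442 (minus strand) and for IFI44L chr1:78620198-78620447 (plus strand).
IFI6: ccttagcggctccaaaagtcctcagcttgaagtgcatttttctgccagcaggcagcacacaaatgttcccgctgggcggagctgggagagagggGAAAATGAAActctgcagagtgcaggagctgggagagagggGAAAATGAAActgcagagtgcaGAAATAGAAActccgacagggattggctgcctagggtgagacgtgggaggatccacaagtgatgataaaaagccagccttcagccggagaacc
IFI44L: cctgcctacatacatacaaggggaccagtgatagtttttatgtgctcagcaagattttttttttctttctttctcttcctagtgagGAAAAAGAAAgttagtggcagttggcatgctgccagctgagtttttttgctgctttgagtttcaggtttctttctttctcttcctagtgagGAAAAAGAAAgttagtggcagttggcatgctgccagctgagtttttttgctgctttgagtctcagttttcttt
The letters, searched on both strands, occurred 3 times for IFI6 and 2 times for IFI44L. They were found for 3 of the 4 lowered interferon genes in the table (IFI6, IFI44L and MX1, not OAS1), for 18 of 26 members of the whole list and for 3.71% of 27305 genes. None of the 13 higher genes in the table held them, and of the 22 lower genes only these 3 did. Such a match shows no binding.

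IFI6, a mitochondrial protein that restrains cell death, read 9.74, 9.63, 9.66 and 10.20 on the NME1-K12Q arrays and 8.77, 8.50, 8.41 and 8.89 on the NME1-P96S arrays. All NME1-P96S arrays were lower, and the level fell by 1.17 (SE 0.19, limma adjusted p = 0.00651), 2.24-fold. OAS1 and OAS2 make the oligoadenylates that switch on RNase L. OAS1 read 6.32, 6.21, 6.04 and 6.08 against 5.21, 4.91, 5.50 and 5.25, a difference of -0.95 (SE 0.172, limma adjusted p = 0.0147) that did not pass without NME1-K12Q replicate 1 or NME1-P96S replicate 2 (-0.84 and -0.89). OAS2 read 5.45, 5.60, 5.74 and 5.93 against 4.49, 4.57, 4.98 and 4.90, a difference of -0.94 (SE 0.152, limma adjusted p = 0.00651). OAS3, which lies between them on chromosome 12, was at -0.52 and did not pass (limma adjusted p = 0.0544); it was chosen after its values were seen. No array of one line reached the other line on OAS1 and OAS2.

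IFI44L read 4.85, 4.51, 4.75 and 5.08 against 3.86, 3.96, 4.22 and 3.94. This is a low level, with line means under the 5 below which 25.8% of all rows lay on average. IFI44L fell by 0.80 (SE 0.142, limma adjusted p = 0.012), a call lost without NME1-K12Q replicate 4 or NME1-P96S replicate 1 (-0.71 and -0.76). MX1, a dynamin-like GTPase that traps viral particles, fell by 0.59 from 6.44 ± 0.0683 to 5.85 ± 0.0773 (SD, n = 4 each; limma adjusted p = 0.00651). Without NME1-K12Q replicate 3 or 4 or NME1-P96S replicate 3 its fold was under 1.5 (-0.56 at the smallest). It has the smallest of the 5 differences and was chosen after its values were seen. The 3 most abundant members that did not pass were PARP9 (-0.19), IFI35 (0.17) and IRF1 (0.01), whose arrays overlapped. The median over the list was -0.15, with 25 of 33 negative and 8 positive, beside 44.1% of all rows positive. None of 8 rows with a listed gene among several symbols passed (-0.19 to 0.07). In all 5 genes NME1-P96S lay below the means of the other 4 lines.

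**Figure D3:**
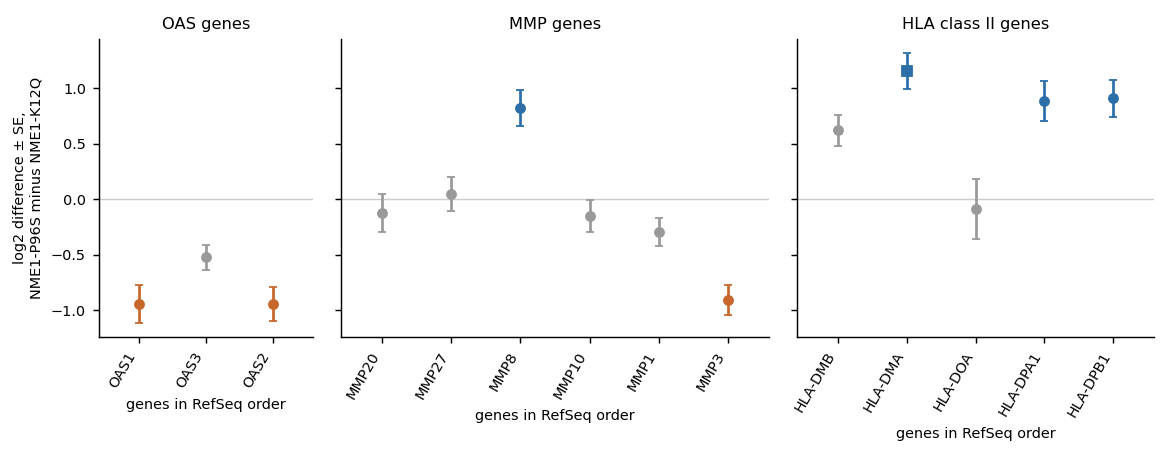
Log2 difference ± SE, NME1-P96S minus NME1-K12Q, of genes in their RefSeq order within the OAS, MMP and HLA class II groups; blue and orange mark changed rows, grey marks rows that did not pass, and the square is row 2950277, shared by HLA-DMA and HLA-DMB. In the MMP group MMP8 (0.82) and MMP3 (-0.91) changed in opposite directions.

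EREG, the EGF receptor ligand epiregulin, read 7.77, 7.50, 7.45 and 7.62 on the NME1-K12Q arrays and 6.20, 5.99, 6.76 and 5.96 on the NME1-P96S arrays. It fell by 1.36 (SE 0.168, limma adjusted p = 0.000403), 2.56-fold. Both lines lay inside the span of the other 3, from 5.97 in NME1-E5A to 7.94 in NME1-wild-type, and EREG was the single changed row of which this was true. It was also the single changed gene among 28 of MAPK pathway output, beside 0.182% of all rows lower, and the list had a median of -0.08. CCND1, which encodes cyclin D1, was at -0.09, and the feedback inhibitor SPRY2 at 0.08.

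Among 28 TGF-beta ligands and targets 2 fell, beside 0.182% of all rows, and none rose. BMP2, a bone morphogenetic protein, read 9.02, 9.48, 9.23 and 9.24 against 7.94, 8.08, 8.37 and 8.35, and fell by 1.06 (SE 0.139, limma adjusted p = 0.000854). INHBA, the subunit of activin A, read 8.06, 7.89, 8.01 and 8.36 against 7.22, 7.19, 7.0 and 7.0, and fell by 0.98 (SE 0.116, limma adjusted p = 0.000284). The groups were apart on both, and both calls passed in all 8 fits without 1 array. BMP2 in NME1-K12Q was above Parent (8.56), NME1-wild-type (8.66) and NME1-E5A (7.86), whereas NME1-P96S at 8.18 was within their span. The abundant members TGFBI (-0.11) and PMEPA1 (-0.17) did not pass, and the list median was -0.11. The lowest difference of the list, -1.16, was of a member that did not pass. All NME1-P96S arrays lay below on 5 members and above on 1, against 1.21% and 1.01% of all rows. INHBA was also the single changed member of 29 genes of the undifferentiated invasive melanoma state (0.182% of all rows were lower), whose median was -0.06.

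Of 27 Wnt components 1 fell, beside 0.182% of all rows. This was DKK1, a secreted inhibitor of the Wnt co-receptor, at 9.88, 9.35, 9.46 and 9.35 against 8.97, 8.13, 7.95 and 7.94. The arrays did not overlap, and the fall was 1.26 (SE 0.234, limma adjusted p = 0.0167), with the call lost without NME1-K12Q replicate 1 or 3 or NME1-P96S replicate 2 or 4 (-1.14 to -1.28). The ligand WNT7B, which is outside that list, read 5.53, 6.38, 6.07 and 6.10 against 4.35, 4.66, 5.47 and 4.97, with 5.47 on NME1-P96S replicate 3 just below 5.53. It fell by 1.16 (limma adjusted p = 0.0176) and did not pass without NME1-K12Q replicate 2, 3 or 4 or NME1-P96S replicate 1 or 2 (-0.99 to -1.14). CTNNB1, the beta-catenin gene, was at 0.24, and the list median was -0.05.

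Among 31 matrix proteases and their inhibitors 1 rose and 2 fell, beside 0.102% and 0.182% of all rows, with a list median of -0.07. MMP8 and MMP3, the neutrophil collagenase and stromelysin, lie 3 places apart in 1 run of matrix metalloproteinase genes on chromosome 11. MMP8 read 8.95, 8.57, 8.94 and 8.93 against 9.98, 9.80, 9.22 and 9.66 and rose by 0.82 (SE 0.165, limma adjusted p = 0.0303), though it passed without NME1-P96S replicate 3 and in none of the other 7 fits without 1 array (0.72 to 0.86). MMP3 read 6.88, 6.45, 6.62 and 6.70 against 6.08, 5.77, 5.46 and 5.71 and fell by 0.91 (SE 0.136, limma adjusted p = 0.0032), passing in all 8. The lines did not overlap on either gene. MMP10 and MMP1, which lie between them, were at -0.15 and -0.30 and did not pass. The carboxypeptidase CPA4 read 6.55, 6.0, 6.52 and 6.78 against 5.64, 5.65, 5.51 and 5.53 and fell by 0.88 (limma adjusted p = 0.00663). MMP2, one of the most abundant members, was at 0.06 with overlapping arrays.

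ALDOC, the aldolase isoform of brain, had the lowest p of the rows that rose. It read 5.94, 6.04, 5.74 and 5.80 on the NME1-K12Q arrays and 7.27, 7.02, 6.98 and 7.15 on the NME1-P96S arrays, and no values of the lines were closer than 6.04 and 6.98. The level rose by 1.23 (SE 0.134, limma adjusted p = 0.000148), 2.34-fold. NME1-K12Q was the lowest of the 5 lines, below Parent at 6.13, while NME1-wild-type (6.93) and NME1-E5A (7.55) lay near NME1-P96S. ALDOC was the single changed gene of 21 for glycolysis, beside 0.102% of all rows higher, and the list median was -0.02. GAPDH was at -0.02. Of 22 genes of the hypoxia response none changed by limma, and 2 had an unadjusted p under 0.05, beside 3.12% of all rows. The median of that list was 0.02, and SLC2A1, the glucose transporter, was at -0.22.

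Genes of sterol and fatty acid synthesis had positive differences on nearly every row, and none passed. Of 24 measured members 0 passed limma, 10 had an unadjusted p under 0.05, 23 had a positive difference and 5 had all NME1-P96S arrays above. The shares of all rows were 3.12% with an unadjusted p under 0.05, 44.1% positive and 1.01% with all NME1-P96S arrays above. The list median was 0.29, beside -0.02 over all rows. The mean level of the list lay between 8.75 and 8.92 on the NME1-K12Q arrays and between 8.96 and 9.30 on the NME1-P96S arrays. DHCR7, the last enzyme of cholesterol synthesis, read 10.21, 10.16, 10.36 and 10.19 against 10.66, 10.62, 10.49 and 10.60 (0.36, limma adjusted p = 0.158). The citrate lyase ACLY and the desaturase SCD were at 0.24 and 0.19. These are the most abundant members, and differences over the list ranged from -0.04 to 0.74.

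**Figure D4:**
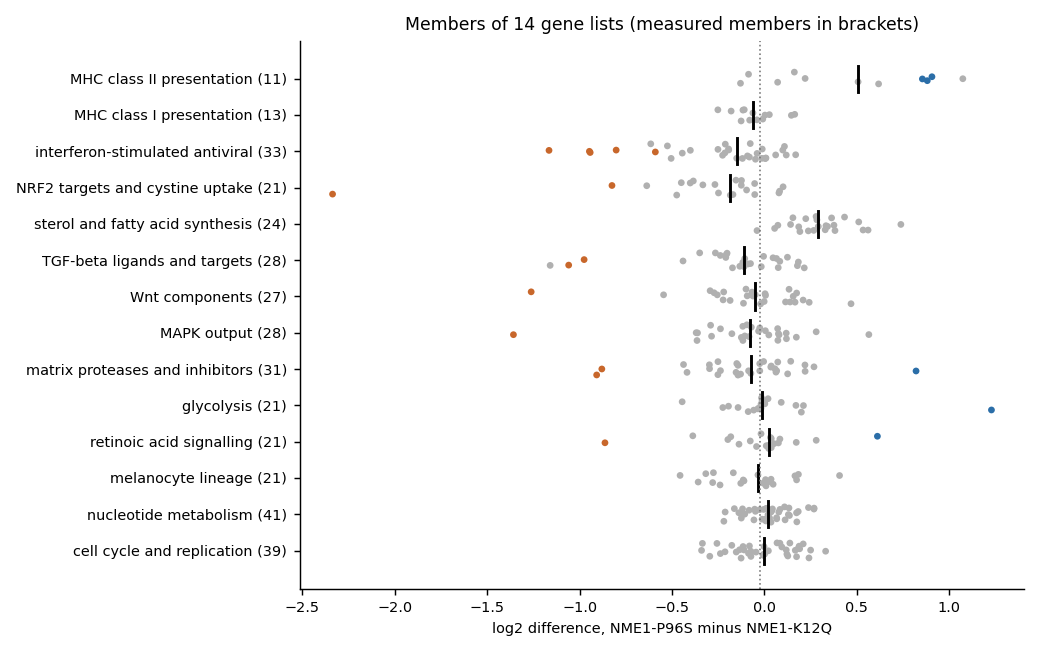
Each point is a measured member of 1 of 14 gene lists, placed at its log2 difference, NME1-P96S minus NME1-K12Q; blue and orange points changed, black bars are list medians and the dotted line is the median of all rows, -0.02. MHC class II presentation has the highest list median, 0.51, and SLC7A11 lies farthest left.

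Of 21 genes of retinoic acid signalling 1 fell and 1 rose, beside 0.182% and 0.102% of all rows, and 19 did not pass. RARB, which binds retinoic acid, read 6.39, 5.86, 6.23 and 6.43 against 5.50, 5.33, 5.30 and 5.33 and fell by 0.86 (limma adjusted p = 0.0101), a call lost without NME1-K12Q replicate 1 or 4 (-0.81 and -0.79). RXRG, a partner receptor, read 5.49, 5.33, 5.20 and 5.38 against 6.0, 6.21, 5.62 and 6.01 and rose by 0.61 (limma adjusted p = 0.0468), passing in 1 of the 8 fits without 1 array, that without NME1-P96S replicate 3. The list had a median of 0.02, and the retinoid enzyme DHRS3 was at 0.05, with TGM2 at -0.20.

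Of 5 rows annotated to SSX genes, a cancer-testis antigen family, 2 rose, beside 0.102% of all rows, and 3 did not pass. Rows 3978030 and 4008876, both annotated to SSX2 and its copies, were at 4.65 ± 0.16 and 4.59 ± 0.339 (SD, n = 4) in NME1-K12Q and at 5.79 ± 0.189 and 5.72 ± 0.165 (SD, n = 4) in NME1-P96S. They rose by 1.14 and 1.12 (limma adjusted p = 0.00267 and 0.00202), without overlap. Their means over all arrays were under 5, a low level. The other SSX rows were row 4007376, which shares SSX2 and SSX3, at 0.37 (limma adjusted p = 0.827), row 3977886 at 0.26 and row 3976559 at 0.20. All 5 rows annotated to XAGE1 genes, members of another such family, were negative, between -0.70 and -0.55, and none passed. Over the 37 rows that carry a listed cancer-testis gene among several symbols, 2 rose, beside 0.102% of all rows, none fell and 35 did not pass. The SSX and XAGE1 rows that did not pass were chosen after their values were seen. SSX proteins are repressors normally restricted to testis, and because the rows share copies they are not independent. Of 6 cancer-testis genes with a row of their own none passed by limma and 0 had an unadjusted p under 0.05. They included MAGEA10 at -0.23.

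Other rows without a single symbol also changed. Row 3768412, which the annotation does not list, read 7.69, 7.65, 7.85 and 7.56 against 6.64, 6.72, 5.95 and 6.33, and fell by 1.28 (SE 0.144, limma adjusted p = 0.000159). Row 2462693 (ZP4 and LOC100130331) rose by 1.24 and row 2690012 (LSAMP and BZW1) by 0.64. Row 3422458 (TRHDE and its antisense transcript) fell by 1.06, row 2576988 (LYPD1 and GPR39) by 0.64 and row 3140213 (MSC and its antisense transcript) by 0.62. All but row 3140213, which passed in none, passed in all 8 fits without 1 array.

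The remaining genes higher in NME1-P96S have varied roles. OLFML2A, an olfactomedin-like matrix protein, rose by 0.73, the proteoglycan ACAN by 0.67 and ITIH5, which binds hyaluronan, by 0.63. ITIH5 was the single changed member of 36 extracellular matrix genes, beside 0.283% of all rows. The list had a median of -0.03, with 19 members negative and 17 positive, beside 44.1% of all rows positive. Its abundant members SPARC and THBS2 were at 0.13 and 0.08 and its lowest, SPP1, at -0.83 (limma adjusted p = 0.0648). The membrane proteolipid GPM6B rose by 0.83 from 4.67 ± 0.0965 to 5.50 ± 0.158 (SD, n = 4 each, limma adjusted p = 0.00651). Its mean over all arrays was under 5, a low level. PCDHB14, a protocadherin with near-identical neighbours, rose by 0.86, the protease inhibitor SERPINA3 and the kinase-like FAM20A by 0.74 each, and creatine kinase CKB by 0.64. OLFML2A and GPM6B passed in all 8 fits without 1 array. ACAN, CKB, FAM20A and PCDHB14 passed in 4 and ITIH5 and SERPINA3 in 2, with differences of 0.59 to 0.76 at their smallest. NME1-K12Q replicate 3 cost the calls of ACAN, CKB, FAM20A, PCDHB14 and SERPINA3 and NME1-K12Q replicate 4 those of CKB, FAM20A, PCDHB14, ITIH5 and SERPINA3. NME1-P96S replicate 1 cost FAM20A, PCDHB14, ITIH5 and SERPINA3, NME1-P96S replicate 2 these and ACAN, and NME1-P96S replicate 4 ACAN, CKB, ITIH5 and SERPINA3. NME1-K12Q replicate 1 cost ACAN, CKB and ITIH5 and NME1-K12Q replicate 2 cost ITIH5 and SERPINA3.

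PRDM1, a transcriptional repressor known from plasma cell differentiation, led the remaining genes lower in NME1-P96S by p. It read 6.90, 6.77, 6.95 and 7.22 against 6.06, 6.07, 5.91 and 6.0 and fell by 0.95 (SE 0.14, limma adjusted p = 0.00267). TM4SF18, a tetraspanin-like membrane protein, fell by 1.11, the sulfotransferase CHST15 by 0.97 on one row and 0.84 on the other, RAB27B, a GTPase of vesicle secretion, by 0.97, and CDCA7L, a MYC-interacting protein, by 0.96. PRDM1 and CDCA7L passed in all 8 fits without 1 array, though CDCA7L had a low mean over all arrays, under 5. CHST15 was lost on its first row without NME1-K12Q replicate 2 or NME1-P96S replicate 1 or 2 (-0.85 to -0.89) and on its second in all but the fit without NME1-P96S replicate 3. RAB27B was lost without NME1-K12Q replicate 1, 3 or 4 or NME1-P96S replicate 4 (-0.88 to -0.99), and TM4SF18 in all but the fit without NME1-P96S replicate 1 (-0.89 to -1.21). Besides MX1, the 9 changed genes outside the naming rule, chosen after their values were seen, were OTUB2 (-0.88), ADGRF1 (-0.80), TRIML2 (-0.73), EYA1 (-0.70), CNTN1 (-0.68), MICAL2 (-0.63), tissue factor F3 (-0.60), LGR6 (-0.59) and DNER (-0.59). The changed row of ADGRF1 passed in all 8 fits without 1 array, and OTUB2 in all but that without NME1-K12Q replicate 4 (-0.81). TRIML2 passed in 5, EYA1 and CNTN1 in 4 and the other 4 genes in 1 each. ADGRF1 has another row of higher mean that did not change, so the gene was not called with 1 row for each gene. TRIML2, EYA1 and CNTN1 were lost without NME1-K12Q replicate 1 or 4, TRIML2 and CNTN1 also without NME1-P96S replicate 4, EYA1 and CNTN1 without NME1-K12Q replicate 3 and EYA1 without NME1-P96S replicate 3. LGR6 and F3 passed without NME1-P96S replicate 3, DNER without NME1-K12Q replicate 2 and MICAL2 without NME1-K12Q replicate 1.

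Over all rows 0.283% changed and 3.12% had an unadjusted limma p under 0.05. The remaining lists had no changed member by limma. They cover nucleotide metabolism, the pathway nearest to the enzyme activity of NME1 (41 measured, 1 at an unadjusted p under 0.05, median 0.02), and the cell cycle (39 measured, 5 at an unadjusted p under 0.05, median -0.0043). In nucleotide metabolism NT5E and UCK2 were both at 0.18, and in the cell cycle the mitotic kinase PLK1 was at -0.34, with its arrays apart. Excision repair had 24 measured members and p53 targets 25, with 0 at an unadjusted p under 0.05 in each. Amino acid and unfolded protein stress had 25 members (1 at that level), chemokines and cytokines 28 (4), integrins 23 (2), neural crest genes 22 (4), metastasis suppressors 17 (0) and genes reported as repressed by NME1 in other cells 9 (2). Of the chemokines and cytokines, IL1B was at -0.43, CCL2 at 0.34 and the highest member at 0.94. The melanocyte list had 21 members (3 at that level), fibroblast markers 11, endothelial markers 11 and keratinocyte markers 14, with 1 each.

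The changed rows were set beside the means of Parent, NME1-wild-type and NME1-E5A. This is a description with no test, since the rows were chosen on the arrays of NME1-K12Q and NME1-P96S. That choice by itself tends to place these lines on opposite sides of the others, and positions over all rows were not counted. On 31 of 53 rows both lines lay outside the other 3 means, on 15 NME1-P96S alone, on 6 NME1-K12Q alone and on 1 neither. NME1-P96S was the farther from the mean of the other lines on 36 rows, 15 of the 19 higher and 21 of the 34 lower. Over the higher rows the median distance was 0.70 for NME1-P96S and -0.16 for NME1-K12Q, and over the lower rows it was -0.49 and 0.42. ALDOC, BMP2 and row 3768412 were examples with NME1-K12Q farther, and HLA-DPB1, IFI6 and DKK1 were examples with NME1-P96S farther. Against Parent, the same rule called 1 row (0.00535%) in NME1-K12Q and 18 rows (0.0962%) in NME1-P96S; these comparisons share the Parent arrays.

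**Figure D5:**
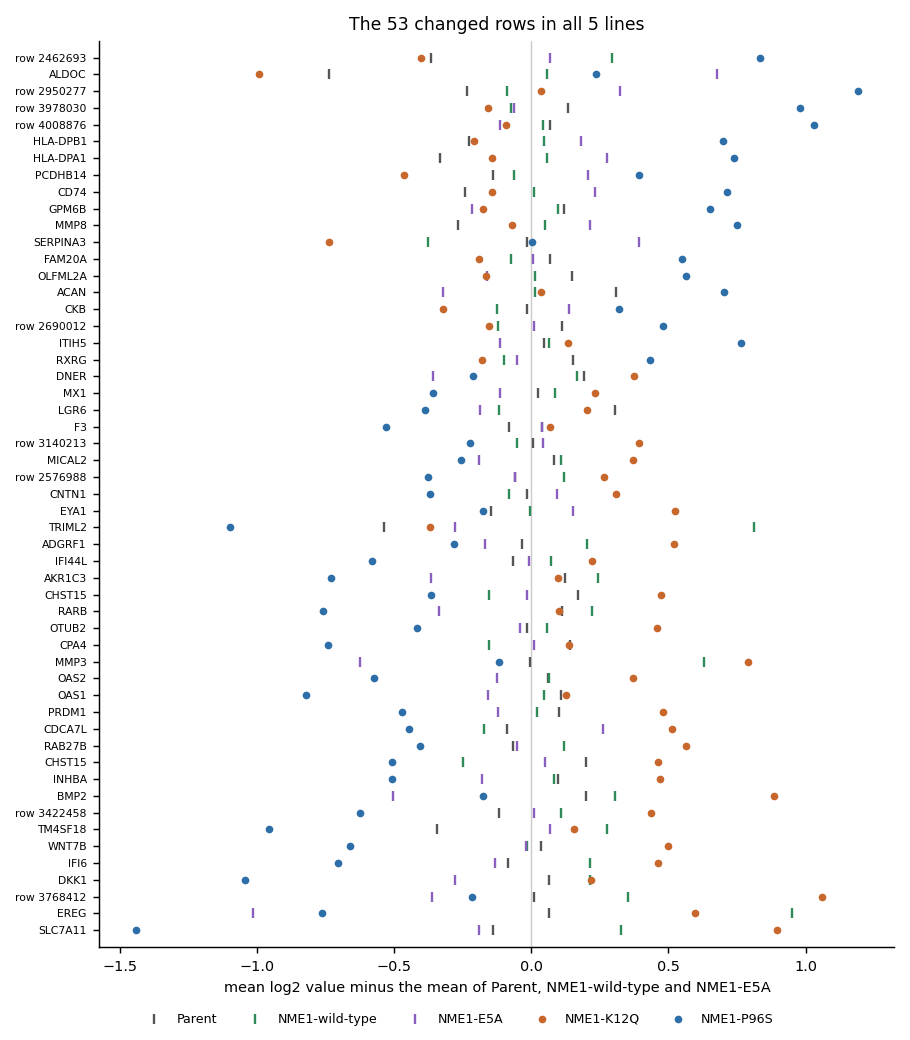
Mean log2 values of the 53 changed rows in the 5 lines, each minus the mean of Parent, NME1-wild-type and NME1-E5A; points are NME1-K12Q (orange) and NME1-P96S (blue), ticks are the other 3 lines, and rows are ordered by difference. The rows at the top are high in NME1-P96S and the rows at the bottom are low in it, with NME1-K12Q on the other side of 0 for most of them.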

How the data were processed

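RNA of the 5 WM793 lines was hybridised to 20 arrays, and the authors deposited RMA output on the log2 scale, computed in R, per the labels and the submitters' processing notes, which also name limma. Versions, genome build and annotation release are not given in the sources used here. Lines and replicate numbers came from the titles. No depth applies to arrays, and their number limits the precision.

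Gene names came from the platform annotation, in which 14735 of 18708 had 1 symbol, 2873 had several and are given by identifier, and 1100 were not listed. Where a gene had several rows, the row of highest mean stood for it in the lists. limma 3.58.1 (R 4.3.3; lmFit and eBayes) fitted a mean for each line over all 20 arrays, with 15 residual degrees of freedom, and tested NME1-P96S minus NME1-K12Q two-sided with Benjamini-Hochberg adjustment over 18708 rows. Calls needed an adjusted p under 0.05 together with a 1.5-fold difference or more. The fit was tested on simulated data.

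The members and the 31 gene lists were chosen with earlier results of these data known. The genes named are NME1, up to 15 with a single symbol in each direction, every changed row with several symbols or none, and all members of the class II and NRF2 lists. From the other lists come up to 4 changed members and up to 3 of the most abundant that did not pass. Lists are described by counts and medians with no test. Upstream sequences are from RefSeq (GRCh38.p14). Alternatives covered other normalisations, weights, covariates, filters, fits and leaving out each array. Python 3.11.15 was used for tables.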

Additional observations from a re-analysis of the deposited data

Results flagged for a closer look

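In each line the highest and the lowest of the 4 arrays were checked for a gap to the nearest other array larger than Dixon's critical value for 4 samples. Chance alone gives such a gap in about 1 in 20 groups, and it was found in 13 of 310 groups over the 155 rows checked.

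On MMP8, which rose in NME1-P96S, NME1-K12Q replicate 2 read 8.57 and the other 3 NME1-K12Q arrays 8.93 to 8.95. On TM4SF18, which fell, the same array read 8.60 against 8.96 to 9.02. On CTNNB1, which did not pass, it read 10.21 against 10.62 to 10.64. NME1-K12Q replicate 2 is one of the 3 arrays of narrowest spread, and the part of that spread in these values was not tested.

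On row 2950277 (HLA-DMA and HLA-DMB) NME1-K12Q replicate 3 read 6.32 and the other arrays of that line 6.69 to 6.72. On row 4008876 (SSX2 copies) NME1-P96S replicate 4 read 5.47 against 5.78 to 5.83. On RARB the NME1-P96S replicate 1 value was 5.50 against 5.30 to 5.33. NME1-K12Q replicate 1 read 10.53 on ACLY against 10.85 to 10.90 and 7.52 on ABCC1 against 7.84 to 7.88. NME1-P96S replicate 3, also among the 3 narrowest arrays, read 10.48 on SNAI2 against 10.85 to 10.91. On CTAG2 it read 7.43 against 6.07 to 6.19. The remaining gaps were on NME4 (NME1-P96S replicate 2), MYBL2 (NME1-K12Q replicate 1) and CD82 (NME1-P96S replicate 4). These genes, SNAI2 and CTAG2 did not pass.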

How the results depend on the processing

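Every changed gene and row named kept its direction under each alternative run; what moved was how many passed. The 53 changed rows (19 higher and 34 lower in NME1-P96S) became 2 (1 and 1) in a fit on the 8 arrays alone and 1 (0 and 1) when tested against the fold itself. They became 364 (155 and 209) with array weights, 89 (29 and 60) when array spread (interquartile range) was a covariate and 84 without the 3 narrowest arrays (38 higher). Leaving out 1 array gave 28 to 79 rows, 9 to 40 higher and 17 to 39 lower. Counts within 1.5 times came from 1 row for each gene (51), a filter on low values (52), an intensity trend (51), median centring (44), quantile normalisation (53, of which 42 are shared with the 53 reported) and an adjusted p alone (65). With the replicate number as a block 61 rows changed, 52 of them among the 53; the paired sign flips on the NME1 row gave a difference of 0.03 with p = 0.875 (exact, smallest possible 0.125). Deviations of same-numbered arrays correlated at 0.588, -0.721, -0.144 and 0.011 for replicates 1 to 4, with no common sign. The highest correlation was 0.859, between NME1-K12Q replicate 2 and NME1-P96S replicate 3, and not every array correlated best with its own number.

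Class II members changed were 3, but 0 on the 8 arrays alone, 0 against the fold itself, 5 with array weights and 0 to 4 without 1 array. The 5 interferon members became 0 on the 8 arrays alone and 0 against the fold, and 3 to 5 without 1 array. The 2 NRF2 list members became 1 on the 8 arrays alone, 1 against the fold, 1 under quantile normalisation, 1 without the 3 narrowest arrays, 4 with the spread covariate and 1 to 2 without 1 array.

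The 11 calls lost under quantile normalisation were those of PCDHB14, RXRG, IFI44L, AKR1C3, CPA4, RARB, LGR6, F3, CNTN1 and rows 3140213 and 3422458. The 11 lost under median centring were HLA-DPA1, MMP8, SERPINA3, ITIH5, RXRG, TM4SF18, RAB27B, DNER, EYA1, MICAL2 and CNTN1. HLA-DMB passed under quantile normalisation, array weights and the covariate, HLA-DRA with array weights, ABCC2 with array weights and the covariate, GCLM with the covariate, and FCRLA under quantile normalisation, array weights, the covariate and the block. The cause was not tested.

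Values that turned sign were all of rows that did not pass. Without 1 array they ranged from -0.0737 to 0.0842 on the NME1 row, -0.0466 to 0.11 on row 3726960, -0.176 to 0.121 on GCLC, -0.352 to 0.0964 on HLA-DOA, -0.0618 to 0.152 on IRF1, -0.0406 to 0.199 on PGD and -0.126 to 0.284 on UGDH. They ranged from -0.137 to 0.0265 on ABCC1, -0.0453 to 0.0107 on GAPDH, -0.0947 to 0.248 on GPX2, -0.285 to 0.0159 on GSR, -0.0078 to 0.354 on IFI35 and -0.0147 to 0.151 on RFXAP. Array weights gave 0.0700 on GCLC, -0.0746 on GPX2, 0.0806 on GSR, 0.0388 on PIR and -0.0927 on row 3726960. The covariate gave 0.107 on HLA-DOA, -0.0807 on IRF1 and -0.129 on UGDH, and quantile normalisation gave 0.018, -0.0357 and, on row 3726960, -0.0167. Of the values of the list medians, 528 moved by less than the spread between arrays and 30, over 8 lists, by more.

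The number of arrays, 4 for each of 1 line per construct, limits the precision of every value, as does signal near background in the 25.8% of rows with a mean under 5.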
